A study of Mus musculus with 32 samples.

Results

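The genes described here are 10 regulators that hold the cell cycle back or answer cell stress: the cyclin-dependent kinase (CDK) inhibitors Cdkn1a, Cdkn1b, Cdkn1c and Cdkn2c, the p53 target genes Mdm2, Ccng1 and Trp53inp1, and the growth arrest and DNA damage genes Gadd45a, Gadd45b and Gadd45g. They were found by gene name among the probes of a one-colour Agilent mouse liver array. The 10 genes carried 14 of the 55681 probes on the array, and 11 of these 14 passed the filter on dim probes. All 10 genes were among the 21071 genes tested, and the probe used for each was well above background on all 32 arrays and saturated on none.

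CDK inhibitors of the Cip/Kip family (p21 from Cdkn1a, p27 from Cdkn1b, p57 from Cdkn1c) bind cyclin-CDK complexes, and p18 from Cdkn2c, of the INK4 family, binds CDK4 and CDK6. The transcription factor p53 is stabilised by DNA damage and other stress and induces Cdkn1a, Mdm2, which marks p53 for degradation, Ccng1, which encodes cyclin G1, and Trp53inp1, a regulator of p53-dependent cell death and autophagy. Gadd45 proteins are small stress-induced binding partners of CDK1, PCNA and the kinase MAP3K4. Hepatocytes are mostly quiescent and re-enter the cycle after partial hepatectomy (PH), the surgical removal of part of the liver.

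The livers came from male C57/BL6 mice with no genetic change, 8 weeks old when the diets began, in 8 groups of 4. Group C received standard chow and group MCD a diet without methionine and choline, which gives a fatty, inflamed liver, for 3 weeks. Groups named C+Fc-GLP-1 (chow) or M+Fc-GLP-1 (MCD) received the same diets and, during the last 2 weeks, Fc-GLP-1, a long-acting GLP-1 receptor agonist (a GLP-1 analogue fused to a human IgG4 Fc), every 2 days, while the other groups received saline. The sample labels describe the drug in part as a dual GLP1R/GCGR agonist at 4.4 mg/kg/day, a conflict that the arrays do not settle. Each regimen was measured before PH, in liver removed at surgery, and 2 weeks after a 70% PH with diet and treatment continued. Livers after PH are therefore from mice that survived the operation, and the labels do not say which livers before and after PH share a mouse.

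The arrays lay on 5 slides, and only 3 of the comparisons below lie within a slide: MCD against C before PH, and M+Fc-GLP-1 against C+Fc-GLP-1 before and after PH. In every other comparison of 2 groups slide and group cannot be told apart. The arrays of C and MCD after PH were also read on another scanner than the other 6 groups, so scanner cannot be told apart from the group in C and in MCD after against before PH, or for the drug on either diet after PH. Between 35.6% and 68.5% of probes were well above background on an array, the highest share on C before PH replicate 2. Markers of hepatocytes averaged 8.97 to 9.74 log2 units above the array's 75th percentile in the 8 groups. A level is the log2 signal minus the array's 75th percentile, so a level of 0 equals that percentile, and levels of different genes are not comparable because probes differ. In whole liver, fewer cells of a type and less RNA per cell cannot be told apart.

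Promoter sequence was available for 8 of the 10 genes, at 10 transcription starts, from RefSeq on GRCm38.p6. The 3 stretches below are shown for letters that well studied factors bind. These are ACATGT, which can be the core of a p53 half-site, upstream of Cdkn1a, and the E-box CACGTG upstream of Gadd45b and Gadd45g. The E-box is known from clock and MYC family factors. Each run is the 250 bases before an annotated start, 5′ to 3′ on the plus strand, with the motif in capitals.
Cdkn1a, chr17:29090729-29090978: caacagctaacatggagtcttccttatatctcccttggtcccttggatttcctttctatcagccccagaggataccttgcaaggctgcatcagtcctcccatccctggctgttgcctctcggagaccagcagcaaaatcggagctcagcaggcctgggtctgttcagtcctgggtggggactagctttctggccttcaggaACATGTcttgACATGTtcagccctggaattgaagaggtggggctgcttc
Gadd45b, chr10:80929841-80930090: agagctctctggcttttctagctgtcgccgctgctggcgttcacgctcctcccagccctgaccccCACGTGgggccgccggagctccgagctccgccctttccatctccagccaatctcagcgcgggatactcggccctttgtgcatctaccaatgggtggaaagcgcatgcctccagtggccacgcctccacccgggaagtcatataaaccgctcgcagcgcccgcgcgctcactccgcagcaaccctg
Gadd45g, chr13:51846425-51846674: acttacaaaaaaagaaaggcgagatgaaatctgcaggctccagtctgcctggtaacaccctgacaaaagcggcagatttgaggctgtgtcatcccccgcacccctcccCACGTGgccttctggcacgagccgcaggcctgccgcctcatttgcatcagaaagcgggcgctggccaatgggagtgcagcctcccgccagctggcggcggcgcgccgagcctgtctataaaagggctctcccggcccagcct

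Searched on both strands, CACGTG stood in 6.02% of all 32851 promoters of the same length and in 2 of these 10, beginning 185 bases before the Gadd45b start and 142 before the Gadd45g start. The letters ACATGT occurred at least 2 times in 0.247% of promoters, and in the Cdkn1a stretch they began 49 and 39 bases before the upstream start. A p53 half-site, searched by its consensus, was found in 4 of these 10 promoters (of Cdkn1a, Gadd45a, Mdm2 and Ccng1) and in 7.13% of all promoters. In the Cdkn1a stretch the consensus matched 2 times. The ACATGT at 49 bases lay within 1 match, and the ACATGT at 39 lay in none. The other match held no ACATGT and is not in capitals. The CCAAT box was found in 6 of these 10 promoters and in 33.8% of all promoters. CACGTG and ACATGT do not overlap in these stretches. A match describes the letters and is not a measurement of binding. The second annotated Cdkn1a start held neither CACGTG nor ACATGT, nor did the promoters of Cdkn1b, Cdkn2c, Gadd45a, Mdm2 and Ccng1.

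**Figure D1:**
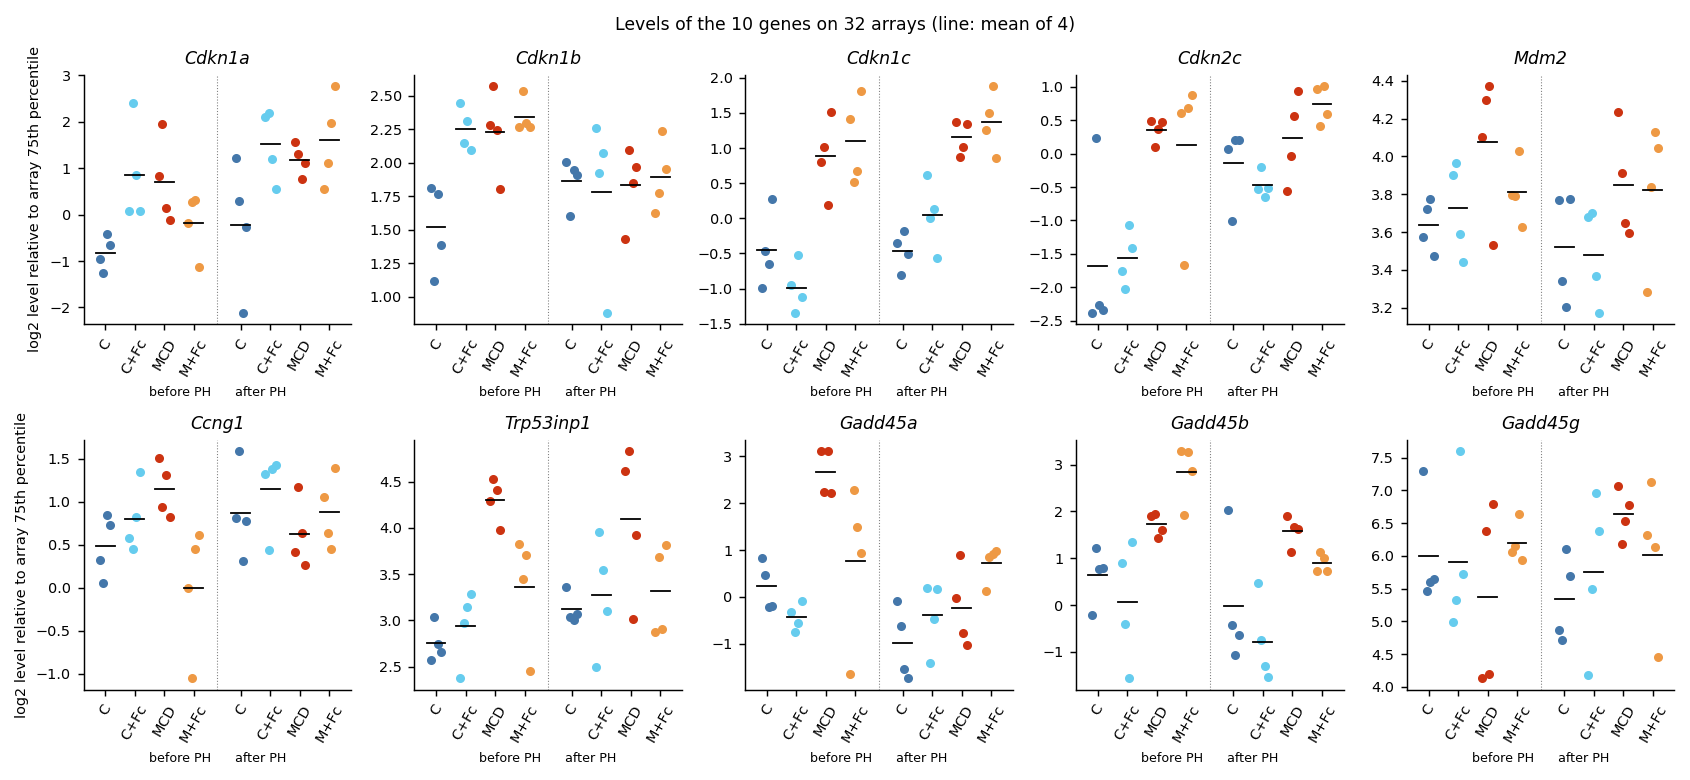
Levels of the members: log2 level relative to the array's 75th percentile (vertical axis) of each of the 10 genes in the 8 groups (horizontal axis; C+Fc and M+Fc are the Fc-GLP-1 groups), with a point per array and a line at the mean of 4. Cdkn1c was higher in the MCD-fed groups both before and after PH, Gadd45a was highest in MCD before PH with a mean of 2.67, and the 8 group means of Mdm2 lay within 0.59 of each other.

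Cdkn1b, Cdkn1c, Cdkn2c, Trp53inp1 and Gadd45a were higher in MCD than in C before PH, the comparison with both groups on one slide, and none was lower. That is 5 of 10 against 26.5% of all genes called in either direction and 10.9% called higher (limma, Benjamini-Hochberg adjusted p under 0.05 over 21071 genes, used throughout). Over all genes 2306 were higher and 3268 lower, and with each array centred on its median instead 4206 were higher and 1266 lower, while all 5 members stayed higher in both. The median log2 difference of the 10 genes was 1.21 and that of all genes was -0.13. Under Fc-GLP-1 before PH 3 of 10 members (Cdkn1c, Cdkn2c and Gadd45b) were higher on MCD than on chow, against 10.4% of all genes called and 5.35% called higher. After PH the diet comparison called 1 member without drug (Cdkn1c), against 12.1% of all genes and 6.05% called higher, and 2 members with drug (Cdkn1c and Gadd45b), against 12.8% and 6.20%. These 4 comparisons use separate groups. The members' median log2 differences in these 3 comparisons were 0.35, 0.87 and 0.30, and those of all genes were 0.04, -0.03 and -0.01.

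**Figure D2:**
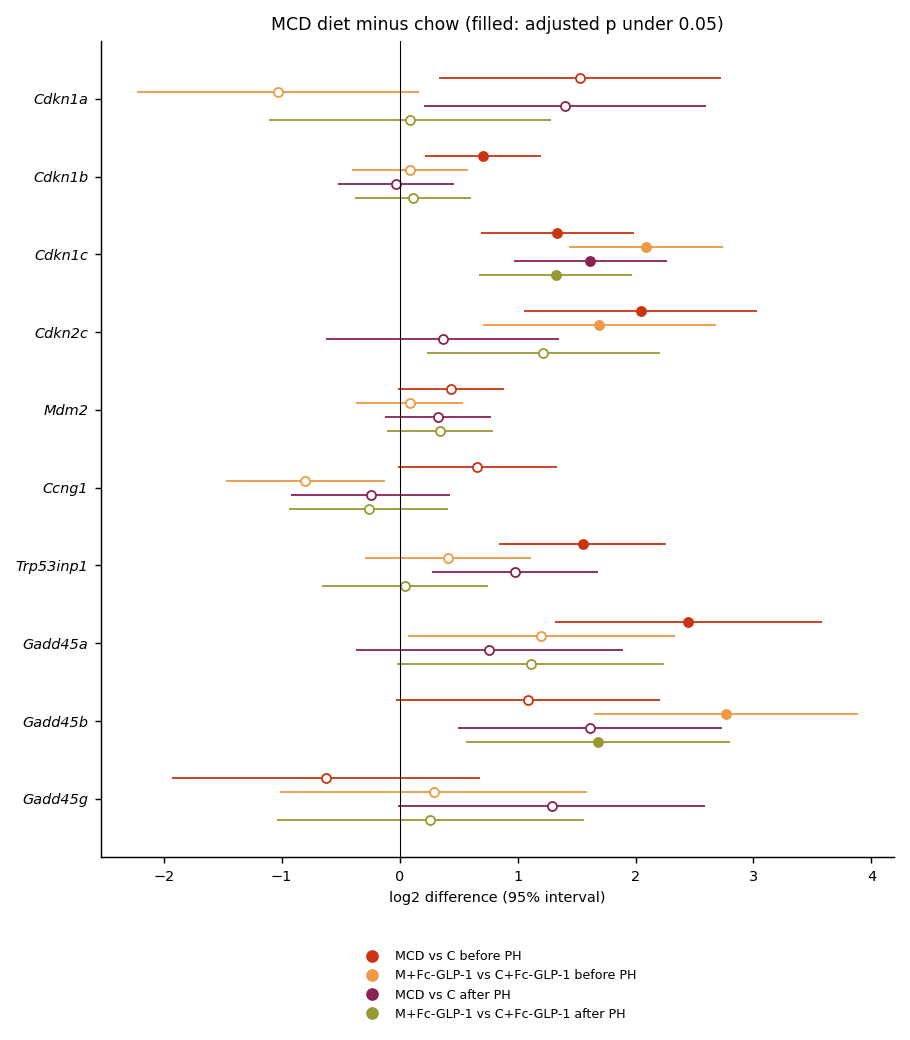
Log2 difference, MCD diet minus chow, with its 95% interval (horizontal axis) for the 10 genes in the 4 diet comparisons, filled where the adjusted p was under 0.05. Cdkn1c alone was called in all 4, with differences from 1.32 to 2.09.

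Cdkn1c (chr7:143458339-143461059 on GRCm38.p6), the imprinted gene for p57, was the member called in every diet comparison. Its levels were -0.99, -0.47, -0.65 and 0.28 in C before PH and 0.80, 1.02, 0.19 and 1.52 in MCD before PH. The lowest MCD liver lay below the highest chow liver. The difference was 1.34 ± 0.32 (SE, n = 4 and 4; 2.53-fold; limma adjusted p = 0.00268). In C+Fc-GLP-1 the levels before PH were -0.95, -1.35, -0.52 and -1.12, and in M+Fc-GLP-1 they were 1.41, 0.51, 0.67 and 1.82. Here the groups did not overlap, and the difference was 2.09 ± 0.32 (4.25-fold; limma adjusted p = 4.71e-05).

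After PH the same order of diets was seen for Cdkn1c. Levels were -0.35, -0.81, -0.19 and -0.51 in C, and 1.37, 0.88, 1.02 and 1.35 in MCD, a difference of 1.61 ± 0.32 (3.06-fold; limma adjusted p = 0.00101) across 2 slides. In the treated groups they were 0.62, 0.00, 0.14 and -0.56 on chow and 1.26, 1.49, 1.88 and 0.86 on MCD. The groups did not overlap in either comparison, and the treated groups, on one slide, differed by 1.32 ± 0.32 (2.50-fold; limma adjusted p = 0.00533). This last call was lost with the authors' normalized values (0.97, adjusted p = 0.108) and with normexp and quantile normalization (1.01, adjusted p = 0.0962). Neither Fc-GLP-1 nor PH gave a called difference in Cdkn1c. The largest of those was after against before PH in C+Fc-GLP-1, at 1.04 (95% interval 0.39 to 1.68, limma adjusted p = 0.107).

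The 4 chow groups held the lowest group means of Cdkn1c, from -0.99 to 0.05, and the 4 MCD groups the highest, from 0.88 to 1.37. No 2 neighbours in this order were free of overlap between their arrays.

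Cdkn2c (chr4:109660876-109666756), the INK4 inhibitor p18, was low in chow liver before PH and higher in the other conditions. Its levels in C before PH were -2.38, 0.24, -2.26 and -2.34, so that replicate 2, the array with the most probes above background, stood far above the rest. In MCD before PH they were 0.49, 0.10, 0.37 and 0.47, and the 2 groups overlapped only through that chow array. The difference was 2.05 ± 0.48 (4.13-fold; limma adjusted p = 0.00257), and 2.69 without C before PH replicate 2 (adjusted p = 5.58e-05).

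Under Fc-GLP-1 before PH the levels of Cdkn2c were -1.75, -2.03, -1.07 and -1.41 on chow and 0.61, -1.66, 0.69 and 0.88 on MCD. Of the MCD-fed livers 3 lay above all treated chow livers, and replicate 2, the array with the fewest probes above background, lay among them. The difference was 1.69 ± 0.48 (3.23-fold; limma adjusted p = 0.022). It was 2.29 without M+Fc-GLP-1 before PH replicate 2 (adjusted p = 0.000936). The call was lost without C+Fc-GLP-1 replicate 2 (adjusted p = 0.073) or without M+Fc-GLP-1 replicate 1, 3 or 4 (adjusted p = 0.0665, 0.0747 and 0.0898), and in a fit of these groups alone (adjusted p = 0.0869).

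After PH the diet difference in Cdkn2c was 0.37 (95% interval -0.62 to 1.35) without drug and 1.22 (0.23 to 2.21, limma adjusted p = 0.0993) with drug, neither of them called. Chow liver itself was higher after PH than before it, by 1.55 ± 0.48 (2.93-fold; limma adjusted p = 0.031), with levels after PH of 0.06, -1.01, 0.20 and 0.20. Without C before PH replicate 2 the difference was 2.19 (adjusted p = 0.00171). Leaving out C after PH replicate 1, 3 or 4 or C before PH replicate 1, 3 or 4 lost the call, with adjusted p between 0.0652 and 0.0952, and a fit of these groups alone gave 0.137. Beside this, 14.0% of all genes were called between C after and before PH and 6.08% were called higher, and Cdkn2c was the one member among them.

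Genes of proliferating cells moved in the same comparisons. Of 8 tested proliferation genes (among them Cdc20, Top2a and the cyclin Ccnb1) 8 were higher in MCD than in C before PH, 4 in M+Fc-GLP-1 than in C+Fc-GLP-1 before PH, and 7 in C after than before PH. Their mean level per array lay between -3.28 and -2.48 in C before PH, between -1.22 and 0.58 in MCD before PH, and between -2.04 and 1.38 in C after PH. On C before PH replicate 2, where Cdkn2c was high, it was -2.48, the highest of the 4 arrays. On M+Fc-GLP-1 before PH replicate 3 it was -2.61 while Cdkn2c was at 0.69, and after PH M+Fc-GLP-1 had the highest mean of Cdkn2c, 0.75, and a proliferation mean of -1.93, below the other 3 groups after PH. The part of proliferating cells in the Cdkn2c differences was not tested. The genes most like Cdkn2c over the 32 arrays were Mbtps2 (Pearson's r = 0.82), BC023263 (r = 0.82) and Adora1 (r = 0.81), values that describe arrays sharing groups and slides.

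**Figure D3:**
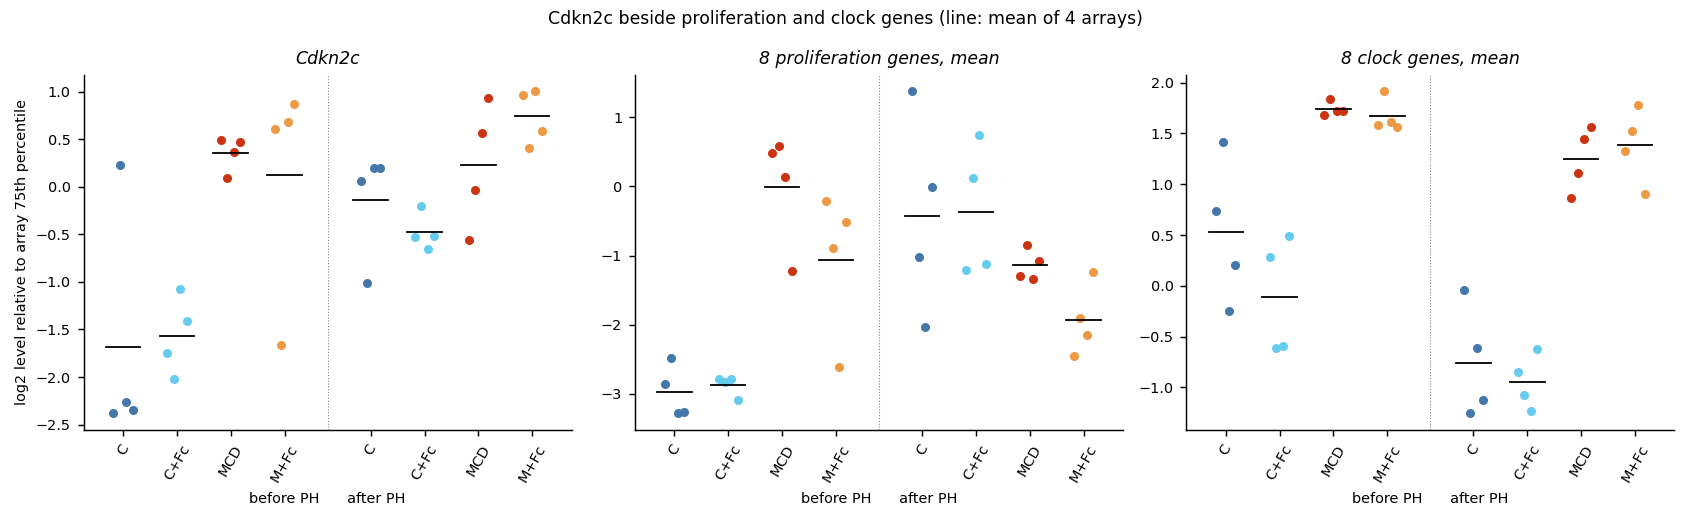
Level of Cdkn2c and mean levels of 8 proliferation genes and 8 clock genes on each array (log2 relative to the array's 75th percentile, vertical axes) in the 8 groups, with a line at the mean of 4. The proliferation mean and Cdkn2c were both lowest in the 2 chow groups before PH. The clock mean and the mean of Cdkn2c were higher on MCD than on chow at each treatment and time. Of these 4 Cdkn2c differences 2 were called. After PH the proliferation mean went the other way, at -1.14 (MCD) against -0.42 (C), and -1.93 (M+Fc) against -0.37 (C+Fc).

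Cdkn1b (p27) had a narrow span of 0.82 between its lowest and highest group mean. It was 0.71 ± 0.24 higher in MCD than in C before PH (1.63-fold; limma adjusted p = 0.0306), from levels of 1.81, 1.12, 1.76 and 1.39 in C and 2.28, 2.57, 2.24 and 1.81 in MCD, which overlapped slightly. The call was lost without C replicate 2 or 4 or MCD replicate 1, 2 or 3 (adjusted p 0.058 to 0.10), with the authors' values (0.57, adjusted p = 0.215), with normexp and quantile normalization (0.56, adjusted p = 0.214), without a filter on dim probes (adjusted p = 0.0512) and with the 2 groups alone (adjusted p = 0.0686). C+Fc-GLP-1 and C differed before PH by 0.73 (95% interval 0.24 to 1.22, limma adjusted p = 0.101). It passed in 3 other settings: median centring (adjusted p = 0.0481), normexp with quantile normalization (adjusted p = 0.0273) and the authors' table (adjusted p = 0.0307).

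Cdkn1a, the p53 target encoding p21, varied widely and was called in none of the 14 comparisons. Its levels in C before PH were -0.96, -1.26, -0.41 and -0.66, the lowest of the 8 groups by mean. They were 0.83, 1.95, 0.15 and -0.12 in MCD and 0.08, 2.39, 0.85 and 0.08 in C+Fc-GLP-1 before PH. Every array of these 2 groups lay above every C array. Even so, neither difference was called in the main fit, where a gene's spread is shared by all 8 groups. MCD minus C was 1.53 (95% interval 0.33 to 2.72, limma adjusted p = 0.0523) and C+Fc-GLP-1 minus C was 1.67 (0.48 to 2.87, adjusted p = 0.117).

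With both diet and drug, in M+Fc-GLP-1 before PH, Cdkn1a was at -0.19, 0.28, 0.31 and -1.12. The diet by drug interaction was -2.56 (95% interval -4.25 to -0.87, limma adjusted p = 0.0599), with a diet difference of -1.03 (-2.23 to 0.17) under drug, so that the opposite signs with and without drug did not pass the test. It passed with median centring (-3.18, adjusted p = 0.0236), with these 4 groups alone (adjusted p = 0.0456) and without C+Fc-GLP-1 replicate 1 (adjusted p = 0.0492). MCD minus C before PH passed with median centring (1.89, adjusted p = 0.0317), with the 2 groups alone (adjusted p = 0.0243), with the replicate number as a block (adjusted p = 0.049) and without MCD replicate 4 (adjusted p = 0.0405). The probe is spotted 10 times on each array, and the SD between its spots had a median of 0.22 over the 32 arrays. In C before PH it was 0.35 to 0.58 on the 4 arrays. Each level there is a mean of 9 or 10 spots, so this SD of single spots is not comparable with the SD of 0.37 between those livers. The 2 other Cdkn1a probes, of other transcripts, were well above background on 7 and 11 arrays and were not kept.

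After PH, Cdkn1a reached means of 1.51 ± 0.78 (SD, n = 4) in C+Fc-GLP-1, 1.18 ± 0.34 in MCD and 1.60 ± 0.97 in M+Fc-GLP-1, against -0.22 ± 1.41 in C, whose arrays ran from -2.12 to 1.22. C+Fc-GLP-1 minus C was 1.73 (95% interval 0.53 to 2.92, limma adjusted p = 0.123) and MCD minus C 1.40 (0.21 to 2.60, adjusted p = 0.12). The latter passed without C after PH replicate 1 (1.88, adjusted p = 0.0317).

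Trp53inp1 (chr4:11156441-11174379) was the one called in a diet comparison among the members grouped here as p53 targets (Mdm2, Ccng1 and Trp53inp1). Other p53 pathway genes are given below. Levels in C before PH were 2.57, 3.04, 2.75 and 2.65 and in MCD 4.29, 4.52, 4.42 and 3.98. The groups were well apart, and the difference was 1.55 ± 0.34 (2.93-fold; limma adjusted p = 0.00155). It depended on the probe. A second probe, at another position in the gene, gave 0.58 in the probe-level fit (adjusted p = 0.241). The authors' table gave a difference of 0.99 (adjusted p = 0.0649), and normexp followed by quantile normalization gave 0.99 (adjusted p = 0.0616). In M+Fc-GLP-1 before PH levels were 3.83, 3.45, 3.71 and 2.45, all below those of MCD, with a difference of -0.95 (95% interval -1.65 to -0.24, limma adjusted p = 0.0887) that was called with median centring (-1.27, adjusted p = 0.0492) and had the opposite sign at the second probe (0.24, adjusted p = 0.741). MCD minus C after PH was 0.98 (0.27 to 1.68, adjusted p = 0.0612), and without MCD after PH replicate 3, the lowest array at 3.02, it was 1.34 (adjusted p = 0.0102).

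Of the members grouped here as p53 targets (Mdm2, Ccng1 and Trp53inp1), Ccng1 was the one called for the drug, lower on MCD before PH. Levels were 1.51, 0.94, 1.31 and 0.82 in MCD and -0.01, -1.05, 0.45 and 0.61 with drug, without overlap. It fell by 1.14 ± 0.33 on the log2 scale (2.21-fold; limma adjusted p = 0.0337). The call was lost without M+Fc-GLP-1 replicate 1 (adjusted p = 0.0686) or replicate 2, the lowest array (-0.79, adjusted p = 0.114), without MCD replicate 1 or 3 (adjusted p = 0.11 and 0.0772), and with the 2 groups alone (adjusted p = 0.081). The diet by drug interaction was -1.46 (95% interval -2.41 to -0.50, adjusted p = 0.0578). It passed with median centring (-2.08, adjusted p = 0.0131) and without C before PH replicate 3 (adjusted p = 0.0489) or M+Fc-GLP-1 replicate 4 (adjusted p = 0.0433).

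Mdm2, the feedback inhibitor of p53, was called in none of the 14 comparisons. Its 32 arrays lay between 3.17 and 4.37, and its largest difference, MCD minus C before PH, was 0.44 (95% interval -0.01 to 0.89, limma adjusted p = 0.142). The intervals of all 12 differences between 2 groups stayed within 0.89 of 0.

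Of a fixed list of 22 other tested p53 pathway genes, 3 were higher and none lower in MCD than in C before PH, where 10.9% of all genes were called higher. These were Pmaip1 (2.28 ± 0.60), which encodes the cell death protein Noxa, the death receptor gene Tnfrsf10b (2.17 ± 0.48) and Apaf1 (1.04 ± 0.38), a part of the apoptosome. The list's median difference was 0.05, against 1.21 for the 10 members and -0.13 for all genes. After PH, 1 was higher and 2 were lower in MCD than in C, where 12.1% of all genes were called: Sesn2 (1.03 ± 0.25) rose, and Plk2 and Bbc3 fell by 1.58 and 1.34 on the log2 scale. Under drug before PH, Ddb2 alone was called between the diets, higher on MCD (1.19 ± 0.28), where 10.4% of all genes were called. Under drug after PH, Plk2 and Bbc3 were again lower on MCD, by -1.67 and -1.52. For Fc-GLP-1 on MCD before PH, Tnfrsf10b alone of the 22 was called, lower (-1.54 ± 0.48), against 7.22% of all genes. The diet by drug interaction called Tnfrsf10b and Apaf1 (-2.35 and -1.75), against 6.15% of all genes. Trp53 itself differed by -0.44 (limma adjusted p = 0.373) between MCD and C before PH. It was lower in C after than before PH, by 1.42 ± 0.35 (limma adjusted p = 0.008), and called in no other comparison. In C after against before PH 2 of the 22 were lower, Trp53 among them, and 2 were higher, against 14.0% of all genes called. The higher ones were Pmaip1 (2.27 ± 0.60) and Tnfrsf10b (1.90 ± 0.48). In M+Fc-GLP-1 after against before PH, Apaf1 alone was called, higher (1.45 ± 0.38), against 1.71% of all genes.

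Gadd45a (chr6:67035096-67037407), the member with the widest span of group means, 3.67, was high in untreated MCD liver before PH. Levels were 0.83, 0.46, -0.22 and -0.19 in C and 3.11, 2.23, 3.11 and 2.21 in MCD. The groups lay far apart, with a difference of 2.45 ± 0.55 (5.45-fold; limma adjusted p = 0.00182). After PH the MCD levels were -0.03, 0.90, -0.78 and -1.03, all below those before PH, so that Gadd45a fell by 2.90 ± 0.55 on the log2 scale in MCD-fed mice (7.49-fold; limma adjusted p = 0.00127). It was the one member called in that comparison, where 9.43% of all genes were called and 3.22% were called lower. With the authors' normalized values this fall was 1.99 (adjusted p = 0.0011), in a table whose columns have 75th percentiles of 8.57 to 8.58 before and 9.18 to 9.24 after PH, so that levels at the 2 times were set on different scales.

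In M+Fc-GLP-1 before PH the 4 levels of Gadd45a were -1.65, 2.29, 1.50 and 0.94, the widest spread of its 8 groups (SD 1.70). The mean lay 1.90 ± 0.55 below MCD (3.73-fold; limma adjusted p = 0.0361), with 1 array within the MCD range. Without replicate 1 the difference was -1.09 (adjusted p = 0.165). The call was also lost without M+Fc-GLP-1 replicate 4 (adjusted p = 0.0569) or MCD replicate 1 or 3 (adjusted p = 0.104 and 0.0888), and with the 2 groups alone (adjusted p = 0.12). Gadd45a and Ccng1 were the 2 members called for the drug on MCD before PH, both lower, against 7.22% of all genes called and 2.79% called lower. The comparison shares its MCD arrays with MCD against C before PH, and it lies across slides. Treated MCD minus treated chow was 1.20 before PH (95% interval 0.07 to 2.33, limma adjusted p = 0.171), and 2.01 without M+Fc-GLP-1 replicate 1 (adjusted p = 0.00535).

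The genes that followed Gadd45a most closely over the 32 arrays were Flt3l (Pearson's r = 0.79), Ddit3 (r = 0.78) and Trib3 (r = 0.78). Ddit3, also known as GADD153 or CHOP, and Trib3 belong to the integrated stress response. The arrays share groups, slides and diets, so r describes these livers only. Ddit3 was called in the same comparisons as Gadd45a: it was 2.29 ± 0.38 higher in MCD than in C before PH, 1.68 ± 0.38 lower with Fc-GLP-1 on MCD and 1.59 ± 0.38 lower in MCD after PH. Unlike Gadd45a it was also called between MCD and C after PH, at 1.21 ± 0.38. Of the 6 related GADD and partner genes, 3 were higher (Ddit4, Ddit3 and Pcna) and 1 lower (Gadd45gip1) in MCD than in C before PH.

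**Figure D4:**
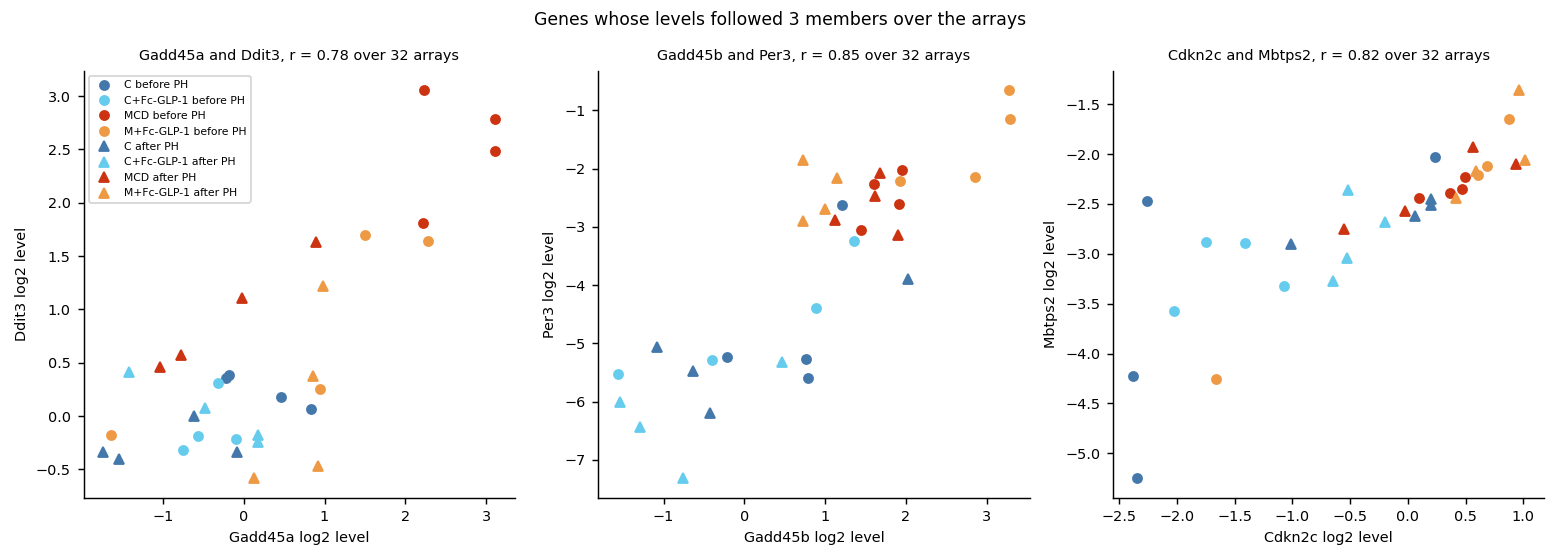
Levels of Gadd45a and Ddit3, of Gadd45b and Per3, and of Cdkn2c and Mbtps2 on the 32 arrays (log2 relative to the array's 75th percentile on both axes), coloured by regimen, with circles before and triangles after PH. Pearson's r was 0.78, 0.85 and 0.82. Part of the chow arrays did not detect Per3. The untreated MCD livers before PH stood at the upper right for Gadd45a, and the MCD-fed livers of both times for Gadd45b.

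Gadd45b was higher under MCD with drug at both times. Before PH the levels were 0.89, -0.40, -1.56 and 1.36 in C+Fc-GLP-1 and 3.29, 1.93, 3.28 and 2.86 in M+Fc-GLP-1. The groups did not overlap, and the difference was 2.77 ± 0.55 (6.82-fold; limma adjusted p = 0.00112). After PH they were 0.46, -0.76, -1.29 and -1.54 on chow and 0.72, 1.14, 1.00 and 0.73 on MCD, again without overlap, a difference of 1.68 ± 0.55 (3.21-fold; limma adjusted p = 0.0401). This second call was lost in 7 of the 8 fits without 1 array (adjusted p 0.0582 to 0.13), all but that without C+Fc-GLP-1 after PH replicate 1 (adjusted p = 0.0147). It was also lost with median centring (adjusted p = 0.0567) and without a filter on dim probes (adjusted p = 0.0726).

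Without drug, MCD minus C in Gadd45b was 1.09 before PH (95% interval -0.03 to 2.21, limma adjusted p = 0.14), with every MCD array above every C array. After PH it was 1.61 (0.49 to 2.73, adjusted p = 0.0513), where 1 chow liver, replicate 1 at 2.02, exceeded all MCD livers. Without that array it was 2.29 (adjusted p = 0.00179), and the difference passed with median centring (1.73, adjusted p = 0.0413), with the mean over a gene's probes (adjusted p = 0.0497) and with the replicate number as a block (adjusted p = 0.0429). M+Fc-GLP-1 after minus before PH was -1.94 (-3.06 to -0.82, adjusted p = 0.0645), with no overlap. It passed with the authors' values (-1.48, adjusted p = 0.0236), with normexp and quantile normalization (-2.07, adjusted p = 0.0225), with the 2 groups alone (adjusted p = 0.0341) and without M+Fc-GLP-1 before PH replicate 2 (adjusted p = 0.0409).

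The gene most like Gadd45b over the 32 arrays was Per3 (r = 0.85), a clock gene, followed by Trim24 (r = 0.83) and Slc10a6 (r = 0.82). Clock genes differed by diet in every diet comparison. Of 8 tested, 4 were higher and 1 lower in MCD than in C before PH, 6 and 1 under drug before PH, 5 and 1 after PH, and 5 and 1 under drug after PH. Per3 was higher by 2.19 ± 0.56, 3.07 ± 0.56, 2.52 ± 0.56 and 3.87 ± 0.56 in these 4. Part of the chow arrays did not detect Per3. Its levels in C+Fc-GLP-1 after PH were -5.33, -7.31, -6.44 and -6.01. The lowest levels well above background on those arrays were -4.79, -5.99, -4.65 and -4.40. It was also under this limit in C before PH replicates 1, 3 and 4, as was Slc10a6 in C after PH replicates 2, 3 and 4. The sizes of these differences and r values rest in part on such signal. Among treated mice before PH, Arntl was 4.58 ± 0.64 lower on MCD than on chow. Clock genes were also called outside the diet comparisons. With Fc-GLP-1 on chow before PH, Arntl was higher (2.57 ± 0.64) and Dbp lower (-2.96 ± 0.68). In C after against before PH 3 were lower, and the diet by drug interaction called 1, with a negative sign. The mean level of the 8 genes lay between 1.68 and 1.84 in MCD before PH and between -0.25 and 1.42 in C before PH. The hour at which livers were taken is not given in the sources used here, and its part in the Gadd45b differences was not tested.

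Gadd45g was called in none of the 14 comparisons, and its livers varied strongly within groups. Levels in MCD before PH were 4.13, 6.38, 4.20 and 6.80, and in C before PH they were 7.29, 5.47, 5.60 and 5.65. The largest difference was MCD minus C after PH, 1.29 (95% interval -0.01 to 2.59, limma adjusted p = 0.201), whose groups did not overlap. The SE of a difference between 2 of its groups was 0.64, against 0.22 for Mdm2.

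**Figure D5:**
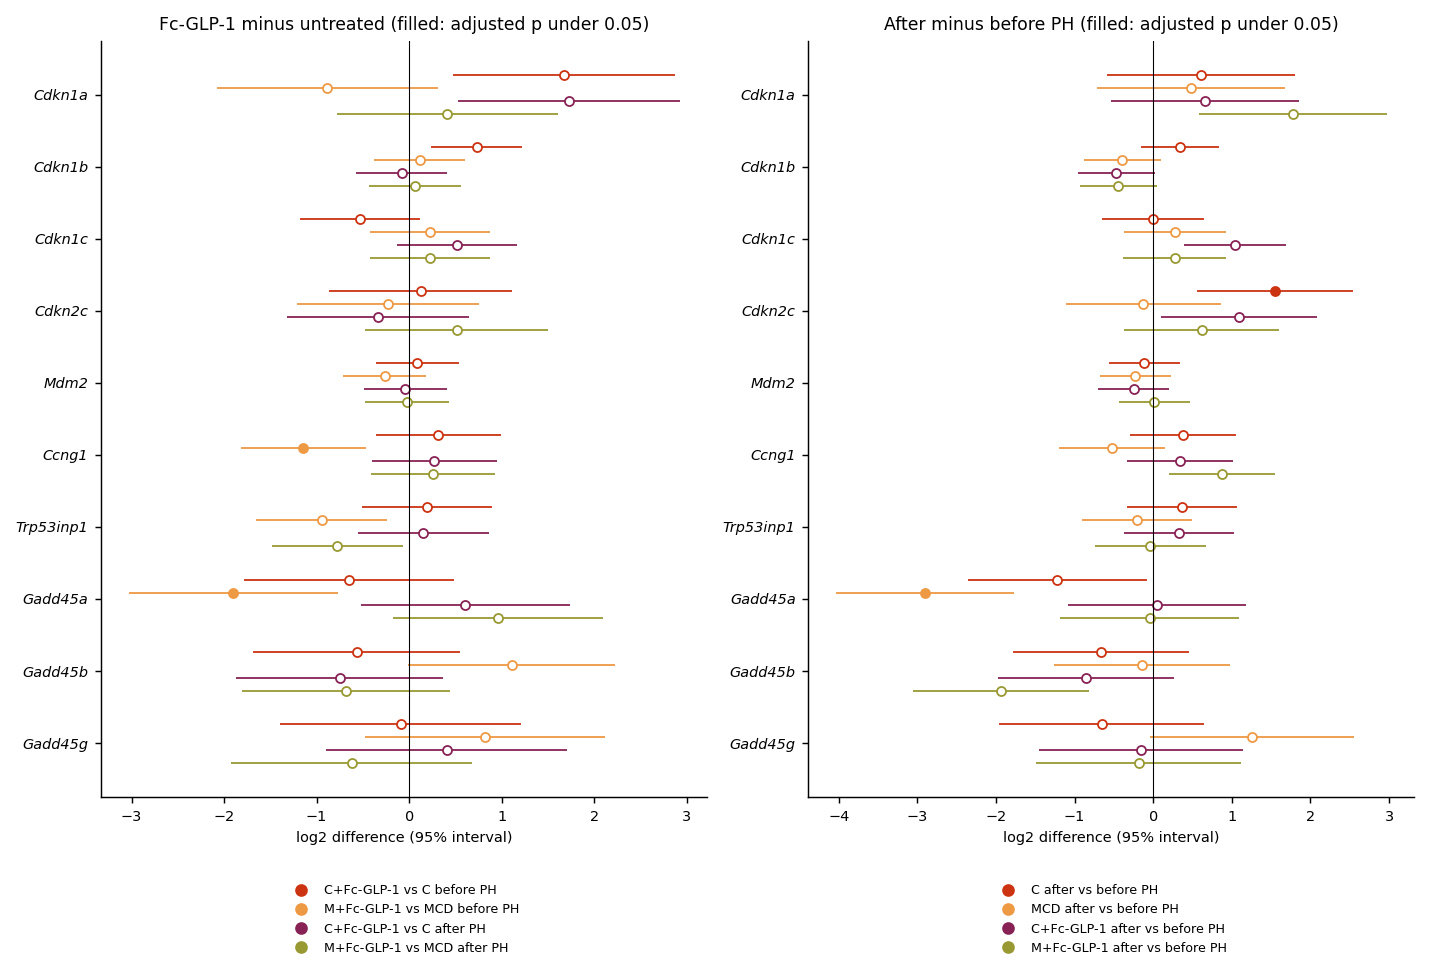
Log2 differences with 95% intervals (horizontal axes) of the 10 genes for Fc-GLP-1 minus untreated (left) and after minus before PH (right) in 4 comparisons each, filled where the adjusted p was under 0.05. The filled points are Ccng1 and Gadd45a for the drug on MCD before PH, Cdkn2c in C and Gadd45a in MCD after PH.

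Fc-GLP-1 on chow gave no called member before PH, against 2.11% of all genes, or after PH, against 2.06%. Unadjusted p was under 0.05 for Cdkn1a and Cdkn1b before PH and for Cdkn1a after PH. The drug on MCD after PH also gave none, against 6.50% of all genes. Its smallest p was for Trp53inp1 (-0.78, 95% interval -1.48 to -0.07, limma adjusted p = 0.178), which passed without MCD after PH replicate 3 (-1.14, adjusted p = 0.0455). After against before PH under drug called no member on chow (0.835% of all genes) or on MCD (1.71%). Unadjusted p was under 0.05 for Cdkn1c and Cdkn2c on chow and for Cdkn1a, Gadd45b and Ccng1 on MCD. The authors' values, scaled apart at the 2 times, called 4 members in each of these 2 comparisons, with the median of all genes 0.49 and 0.47 higher after PH. The 2 interaction tests, diet by drug before PH and diet by time under drug, called none, against 6.15% and 0.0949% of all genes, with an unadjusted p under 0.05 for Cdkn1a, Ccng1, Trp53inp1 and Gadd45b in the former and for no member in the latter. The drug and PH comparisons share groups with the diet comparisons and lie across slides.

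Part of the G1 genes were called in the same livers. Of 11 tested genes (G1 cyclins, kinases, pocket proteins and E2f1), 3 were higher in MCD than in C before PH: cyclin D1 (Ccnd1, 3.18 ± 0.42), Rbl1 (3.15 ± 0.48) and cyclin E1 (Ccne1, 2.27 ± 0.32). Rbl2 and Ccnd3 were lower, by 1.23 ± 0.42 and 0.86 ± 0.30. The other 6 were not called, where 26.5% of all genes were called and 10.9% called higher. Under drug before PH 2 were higher on MCD, against 10.4% of all genes called. After PH 3 were higher and 1 lower on MCD without drug, against 12.1%, and 2 and 1 with drug, against 12.8%. Ccne1 was higher under MCD in all 4 diet comparisons, by 1.92 ± 0.32 to 2.89 ± 0.32, as Cdkn1c was. Of the other INK4 genes Cdkn2a, Cdkn2b and Cdkn2d, Cdkn2b was lower under MCD after PH, by 1.67 ± 0.52 without and 1.54 ± 0.52 with drug, and Cdkn2d was higher in C after than before PH, by 1.06 ± 0.33.

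Markers of other liver cells differed in the comparison with the most member calls. In MCD against C before PH, 5 of 6 macrophage markers were higher and 1, Itgam, lower, 3 of 5 neutrophil markers were higher, 2 of 6 stellate cell markers and 1 of 5 endothelial markers were higher, 2 of 5 lymphocyte markers were lower and 3 of 5 hepatocyte markers were lower. The macrophage mean lay between 1.95 and 2.59 in C and between 2.78 and 4.23 in MCD, and the hepatocyte mean between 9.38 and 10.03 in C and between 8.82 and 9.08 in MCD. With Fc-GLP-1 on MCD before PH, where Gadd45a and Ccng1 were lower, 3 of 6 macrophage markers were lower as well, 2 of 5 neutrophil markers were lower and 1 higher, and 1 of 6 stellate cell markers was lower. The macrophage mean there lay between 1.64 and 2.90, and the neutrophil mean between -2.20 and -1.64, against -1.54 to 0.61 in MCD. In C after against before PH, where Cdkn2c was higher, 5 of 6 macrophage, 3 of 5 neutrophil and 2 of 6 stellate cell markers were higher and 2 of 5 hepatocyte markers were lower, with a macrophage mean of 2.99 to 4.71 after PH. In MCD after against before PH, where Gadd45a was lower, 3 of 5 neutrophil and 2 of 5 lymphocyte markers were higher, and 2 of 6 stellate cell markers and 1 of 4 cholangiocyte markers were lower. The neutrophil mean was then between 1.45 and 3.81 and the stellate mean between -1.03 and -0.32, against 0.17 to 0.31 before PH. In MCD against C after PH, where Cdkn1c was higher, 3 of 5 neutrophil markers were higher and 2 of 6 stellate cell markers lower. In treated MCD against treated chow before PH, 1 macrophage and 1 stellate cell marker were lower and 1 endothelial marker was higher. In the comparison of treated MCD with treated chow after PH, where Cdkn1c and Gadd45b were higher, 1 macrophage marker, 1 lymphocyte marker and 1 endothelial marker were lower and no marker of these cells was higher. Of the hepatocyte and lymphocyte markers, Tf and Cd8a could not be tested. The part of these cells in the members' differences was not tested.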

How the data were processed

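Total RNA of 32 mouse livers was hybridised to one-colour Agilent 8x60K arrays. The authors deposited 1 scanner file per array (Feature Extraction 10.7.3.1), whose processed signal is a background-corrected intensity, and a table of normalized log2 values made with limma per the labels; its scale and centring are unstated, its column medians run from 6.53 to 6.89, and its 32 columns each matched their own array best. Probe positions in the files are mm9. Here log2 intensity minus each array's 75th percentile over 59305 non-control spots was used; outlier-flagged spots were left out, spots of a probe averaged, and 28932 probes kept that passed the scanner's background flag on every array of some group. Genes (21071) were named through RefSeq accessions (27656 of 55681 probes), each by the probe with the highest mean. No per-sample column went unused.

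All 8 groups were fitted with limma 3.58.1 (R 4.3.3; lmFit, eBayes, Benjamini-Hochberg over all genes) for 12 pairwise comparisons and 2 interactions. The fit was tested on simulated data. Members are given in full; from other lists the 3 genes with the largest called change per list and comparison, and Trp53, could be named, and Rbl2, Ccnd3, Gadd45gip1 and Itgam were named after their values were seen; for the 3 members with the widest span, the 3 genes with the highest r. Members and lists were chosen with earlier results of these data known. Alternatives were normexp (offset 50) with quantile normalization, median centring, the percentile over probes detected on all arrays, the authors' values, no filter, the mean over probes, only the groups compared, a replicate block, and each array left out. Each p-value tests a difference against the spread between livers within groups, which for each gene is shared by all 8 groups. The number of arrays limits precision. Tables were made with Python 3.11.15.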

Additional observations from a re-analysis of the deposited data

Results flagged for a closer look

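Of the 80 combinations of gene and group, 7 held 1 array far from the other 3 by Dixon's test, which chance alone gives in about 1 of 20 groups. Of these, 3 concern Cdkn2c: C before PH replicate 2 at 0.24, M+Fc-GLP-1 before PH replicate 2 at -1.66 and C after PH replicate 2 at -1.01. Cdkn1b stood out on M+Fc-GLP-1 before PH replicate 2 (2.53), Ccng1 on C+Fc-GLP-1 after PH replicate 2 (0.44), Gadd45a on M+Fc-GLP-1 after PH replicate 1 (0.12) and Gadd45g on C before PH replicate 1 (7.29). On the 2 Cdkn2c arrays before PH the share of probes above background was also the highest (68.5%) and the lowest (35.6%) of the 32.

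Opposite moves were looked for in 3 pairs of comparisons that had no interaction test: the drug on chow and on MCD after PH, the untreated diet comparison before and after PH, and PH in untreated C and MCD. For 2 genes every array of one comparison lay on one side of its control group's mean and every array of the other on the opposite side, and the contrast between the 2 comparisons was not tested. None of the 4 differences that follow was itself called (limma adjusted p 0.338 to 0.824). For Cdkn2c after PH, the mean difference with Fc-GLP-1 was -0.34 on chow and 0.52 on MCD. For Cdkn1b, after minus before PH was 0.34 in C and -0.39 in MCD.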

How the results depend on the processing

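The 37 results followed here were those with an unadjusted limma p under 0.05 in the main fit, which leaves them little room to change sign. Under 624 alternatives, 328 of them with 1 array left out, none reversed its direction. The second Trp53inp1 probe, of opposite sign for the drug on MCD before PH, was not an alternative of its own. The count of members called in MCD against C before PH went from 5 to 3 with the authors' values, 8 with median centring and 3 with normexp and quantile normalization. In MCD against C after PH it went from 1 to 2 with median centring, with the mean over a gene's probes and with the replicate block. In M+Fc-GLP-1 against C+Fc-GLP-1 after PH it went from 2 to 1 with the authors' values, median centring, no filter and normexp. For C+Fc-GLP-1 against C before PH it went from 0 to 1 with the authors' values, 1 with median centring and 2 with normexp, and for M+Fc-GLP-1 against MCD before PH from 2 to 0 with only the groups compared. After against before PH, the authors' values gave 5 in C and 3 in MCD in place of 1 each, and 4 in either drug group in place of 0. Normexp gave 2 in C and 1 in M+Fc-GLP-1 for the same comparison, and only the groups compared gave 0 and 1. The diet by drug interaction went from 0 to 3 with median centring and 1 with only the groups compared. The authors' columns are scaled apart at the 2 times, with the median of all genes 0.47 to 0.53 higher after PH. For the other shifts the cause was not tested.

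Without 1 array the counts ran from 4 to 7 and 2 to 3 for diet before PH (without and with drug), 1 to 3 and 1 to 2 for diet after PH, 0 to 2 for the drug on MCD before PH and 0 to 1 after PH, 0 to 1 for PH in C and in M+Fc-GLP-1, and 0 to 1 for the diet by drug interaction. They did not move in the other 5.

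Same-numbered arrays correlated from -0.19 to 0.52 after group means were removed, and in no comparison were all 4 pairs over 0.1. The main fit used no pairing by number. Low correlations cannot exclude that same-numbered livers share a mouse, because livers of one mouse may correlate weakly. With the replicate block the counts of the 4 diet comparisons were 6, 3, 2 and 2, and the block changed no call other than Cdkn1a before and Gadd45b after PH, both gained in MCD against C.

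Counts over all genes moved too. After against before PH the authors' values called 9710 genes in C (2940 otherwise), 8693 in MCD (1987) and, under drug, 8076 on chow (176) and 7221 on MCD (361). They called 2108 and normexp 2462 for C+Fc-GLP-1 against C before PH, in place of 444. No filter called 6761 for the drug on MCD before PH, in place of 1521, and median centring 2563 for the diet by drug interaction, in place of 1296. Median centring moved the median gene from -0.13 to 0.24 in MCD against C before PH and from 0.15 to -0.47 in that interaction.

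With 4 livers a group and SEs up to 0.64 for a pairwise difference, differences of 1.73 in Cdkn1a and 1.29 in Gadd45g passed no adjusted threshold.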
